A study of Caenorhabditis elegans with 2 samples.

Results

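Binding of T23F11.4, a protein annotated with a C2H2-type zinc finger domain, was strong at 4 peaks. Their summits lay within 1000 bp of starts of 6 protein-coding genes, with no transfer RNA (tRNA) or small nucleolar RNA (snoRNA) gene nearby. The genes were K12H4.5, ftt-2, C14F11.7, T13C5.6, atx-2 and ecps-1, which are 6 of the 19973 nuclear protein-coding genes. They were chosen by the pooled signal value: a transcript start lay within 1000 bp of one of the strongest summits of the authors' optimal peak list, ranked by signal value, with no tRNA or snoRNA gene within 500 bp of that summit. This choice names no number of strongest summits, and the peak at rpl-3 (rank 12) also meets it but is not a member. The 4 peaks were among the 635 nuclear peaks of that list. Signal and rank chose them, so every signal value here is a description and no test was made on it. A summit is the base of highest enrichment in a peak, and the signal value is the enrichment score that the authors' caller gave the peak.

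Chromatin immunoprecipitation and sequencing was done on whole Caenorhabditis elegans late embryos (age label 4 hours) of strain OP709, which carries unc-119(tm4063) and the transgene array wgIs709 with T23F11.4::TY1::EGFP::3xFLAG and unc-119(+). Both samples were biological replicates of this 1 group. They were made from pooled animals of mixed sex with an antibody against green fluorescent protein, and they share the transgene and the unc-119 allele. Cell types cannot be told apart in whole embryos. The control that the labels name was not analysed here, so the part that unspecific enrichment has in any value was not tested. Peak lists hold no read counts, so depth is unknown.

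A promoter is the DNA around a gene's start where transcription machinery and regulators assemble. RNA polymerase II transcribes protein-coding genes and most regulatory RNAs, whereas RNA polymerase III transcribes tRNA genes from internal promoter elements called the A box and the B box. Coding genes can share one promoter region when their starts point away from each other on opposite strands. C2H2 zinc fingers are small folds held by a zinc ion that often contact DNA. Of the member genes, ftt-2 encodes a 14-3-3 protein, a family that binds phosphorylated proteins and in C. elegans holds the transcription factor DAF-16 in the cytoplasm. The atx-2 gene encodes the homologue of ataxin-2, an RNA-associated regulator of translation. The ecps-1 gene is annotated with the N-terminal domain of Ecm29, a protein that in yeast associates with the proteasome. T13C5.6 is annotated with a phosphatidic acid phosphatase type 2 or haloperoxidase domain, C14F11.7 with an EB domain, and K12H4.5 as an uncharacterized protein.

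The sequence around each of the 4 summits is shown because the enrichment of each peak was highest in these stretches, some of which lie partly in annotated genes. Each window holds 201 bases of the plus strand with the summit in the middle, read from the RefSeq copy of the WBcel235 genome, which is the ce11 build of the files. Capitals mark matches, on either strand, to the B box (GTTCNANNC), the TATA box (TATAAA), the GC box (GGGCGG) and the GAGA repeat (GAGAGA, or TCTCTC on the other strand). The windows lie at chrIII:8043858-8044058 for K12H4.5, chrX:11605849-11606049 for ftt-2, chrX:6207758-6207958 for C14F11.7 and T13C5.6, and chrIII:10461230-10461430 for atx-2 and ecps-1.
K12H4.5: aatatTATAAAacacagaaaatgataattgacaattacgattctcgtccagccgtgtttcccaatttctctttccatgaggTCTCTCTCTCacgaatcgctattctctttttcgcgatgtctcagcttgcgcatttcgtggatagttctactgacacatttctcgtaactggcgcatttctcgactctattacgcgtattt
ftt-2: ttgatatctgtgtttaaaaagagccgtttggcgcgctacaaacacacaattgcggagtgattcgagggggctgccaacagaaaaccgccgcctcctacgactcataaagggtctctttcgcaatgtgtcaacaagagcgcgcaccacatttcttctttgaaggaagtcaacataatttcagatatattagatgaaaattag
C14F11.7/T13C5.6: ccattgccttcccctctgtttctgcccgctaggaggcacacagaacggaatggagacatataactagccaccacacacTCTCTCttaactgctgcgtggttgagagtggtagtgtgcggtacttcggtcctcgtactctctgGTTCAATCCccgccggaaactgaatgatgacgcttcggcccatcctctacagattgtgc
atx-2/ecps-1: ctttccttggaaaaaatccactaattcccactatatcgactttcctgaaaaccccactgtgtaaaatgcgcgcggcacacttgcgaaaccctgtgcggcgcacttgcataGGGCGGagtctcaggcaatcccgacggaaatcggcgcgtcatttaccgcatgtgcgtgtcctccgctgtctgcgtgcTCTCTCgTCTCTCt

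The strongest of the 4 peaks was at K12H4.5 (WBGene00019680, chrIII:8044487-8044780, plus strand), a gene of 294 bp. The peak at chrIII:8043820-8044129 was 310 bp wide, and its summit at 8043958 lay 529 bp upstream of the only annotated start. Its signal value was 712.7 in the pooled list, where it ranked 4th of the 29999 nuclear regions. In the list of replicate 1 the region had a signal value of 249.2 and ranked 6th of 29994. In the list of replicate 2 it had 456.9 and ranked 3rd of 25794. The replicate summits were 1 bp and 10 bp away from the pooled summit.

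The K12H4.5 summit was in intergenic DNA, with 0 genes of any class annotated within 500 bp in the RefSeq annotation. The nearest tRNA gene, K12H4.t1, was 25447 bp away and the nearest snoRNA gene, C50C3.13, 121582 bp away. On the far side of the peak the nearest coding gene was K12H4.6, an uncharacterized gene on the minus strand whose start was 1083 bp from the summit, outside the 1000 bp limit, and points away from K12H4.5. A second pooled region lay within 1000 bp of the K12H4.5 start, at 797 bp past it. Its signal value was 66.5 and its rank 4677, and its summit was in a coding exon of spcs-3, which encodes subunit 3 of the signal peptidase complex. There the replicate lists held regions with signal values of 16.9 and 44.6, so the strong signal sat on the upstream side of K12H4.5 in all 3 lists.

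The peak at ftt-2 (WBGene00001502, chrX:11603708-11605419, minus strand) was the next in signal. It covered chrX:11605784-11606136, and its summit at 11605949 was 530 bp upstream of one annotated start and 537 bp upstream of the other. The signal value was 656.3 in the pooled list (rank 8), 244.8 in replicate 1 (rank 8) and 413.5 in replicate 2 (rank 7). The replicate 1 summit was 22 bp from the pooled one, and the replicate 2 summit was at the same base.

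A second optimal peak lay next to it, at chrX:11606046-11606260, with its summit 205 bp further from ftt-2. This peak had a signal value of 316.4 in the pooled list (rank 58), 135.2 in replicate 1 (rank 31) and 194.2 in replicate 2 (rank 70). Both replicate lists therefore held a pair of summits upstream of ftt-2, the weaker one 183 bp and 205 bp from the pooled summit of the stronger. Inside the ftt-2 gene the signal was much lower, with one region of 43.8 in the pooled list (rank 18347) in an intron. The regions inside the gene had signal values of 32.6 in replicate 1 (rank 2793), in a coding exon, and 26.5 in replicate 2 (rank 23994), in an intron. The ranks of the regions inside the gene thus differed widely between the replicates.

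The DNA upstream of ftt-2 is annotated with 4 genes of the class ncRNA, for which the annotations give no product. The stronger summit lay inside F52D10.7 (chrX:11605853-11605989, minus strand, 137 bp), and the weaker one inside F52D10.9 (chrX:11606129-11606277, minus strand). F52D10.12 was 170 bp and F52D10.11 205 bp from the stronger summit, on the side towards ftt-2. Because F52D10.7 holds the summit, ncRNA and coding gene cannot be told apart as the gene this peak belongs to. The F52D10.7 sequence is shown on its own strand, and none of the motifs searched was in the window around it.
F52D10.7: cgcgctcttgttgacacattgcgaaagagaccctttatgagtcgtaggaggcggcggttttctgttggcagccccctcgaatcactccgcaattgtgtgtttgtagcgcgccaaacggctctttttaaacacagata

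The peak at chrX:6207759-6208010 (summit 6207858) was assigned to C14F11.7 and T13C5.6, which follow each other on the minus strand. T13C5.6 (WBGene00020486, chrX:6206362-6207687) had its start 171 bp from the summit, which was therefore upstream of it. C14F11.7 (WBGene00015782, chrX:6208160-6208563) had its start 705 bp away, with the summit downstream of it and 302 bp past the end of the gene. C14F11.7 is only 404 bp long, and the distance rule took it in although the peak was at its 3′ side. The signal value was 448.0 in the pooled list (rank 16), 159.4 in replicate 1 (rank 21) and 291.1 in replicate 2 (rank 17).

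This summit also lay inside an ncRNA gene, C14F11.14 (chrX:6207835-6207981, plus strand, 147 bp), at base 24 of it. C14F11.14 is shown because it holds the only B box letters found in the 4 windows, at its bases 66 to 74, in capitals.
C14F11.14: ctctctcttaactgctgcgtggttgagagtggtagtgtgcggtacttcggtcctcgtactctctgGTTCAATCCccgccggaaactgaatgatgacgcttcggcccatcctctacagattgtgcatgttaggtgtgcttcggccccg

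The match, GTTCAATCC, began 42 bp to the right of the summit and was part of the run CTGGTTCAATCCCCG. That run of 15 bases was found in 1 of 612 nuclear tRNA genes, ZK970.t3. Among the 279 other optimal peaks that met the same distance rules, the longest run shared with a tRNA gene had a median of 10 bases and a maximum of 16, and it reached 15 in 1 of them. The longest such runs were 9 bases at K12H4.5, 10 bases at ftt-2 and 10 bases at atx-2 and ecps-1. Of the 612 tRNA genes, 587 held the B box letters on their own strand, at a median first base of 52 in genes of a median 72 bases. C14F11.14 is not annotated as a tRNA gene, and the nearest one, C14F11.t1, was 12212 bp away. Words of 32 bases were unique in the genome for 90% of this window and for 100% of each of the other 3, and whether repeated sequence has a part in the signal was not tested.

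A weaker region lay beside this peak, 204 bp from its summit in the pooled list with a signal value of 71.2 (rank 3510). Replicate 2 had it at 205 bp with a signal value of 78.5 (rank 583), whereas the replicate 1 list had no region with its summit there. Regions further out on the C14F11.7 side had signal values of 43.6 and 35.2 in the pooled list and 15.5 in replicate 1. They were in coding exons of lrch-1, a gene annotated with a calponin-homology domain.

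The peak between atx-2 (WBGene00000231, chrIII:10461389-10468051, plus strand) and ecps-1 (WBGene00008422, chrIII:10452753-10460551, minus strand) covered chrIII:10461235-10461459. Its summit at 10461330 was 59 bp upstream of the first atx-2 start and 779 bp upstream of the only ecps-1 start. The other atx-2 starts were 298, 383 and 3126 bp from it. The signal value was 434.1 in the pooled list (rank 18), 173.1 in replicate 1 (rank 18) and 262.8 in replicate 2 (rank 24). The replicate summits were 4 bp and 1 bp from the pooled one. No ncRNA gene was annotated within 500 bp, and the nearest snoRNA and tRNA genes were 28854 bp (H04D03.5) and 163412 bp (Y39A1A.t1) away.

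The start of ecps-1 had a weaker region of its own. In the pooled list its summit was 100 bp from that start, with a signal value of 89.9 (rank 1367). The signal value there was 25.5 in replicate 1 (rank 7526) and 69.7 in replicate 2 (rank 830). The strong peak was thus next to the atx-2 start and not next to the ecps-1 start in either replicate. Within atx-2, a pooled region 589 bp past the c start had a signal value of 71.8 (rank 3405), with 55.0 in replicate 1 (rank 366) and no region in replicate 2. At the start furthest downstream, the pooled region had 56.0 (rank 8752) and the strongest replicate 2 region 40.9 (rank 6791), with none listed in replicate 1.

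**Figure D1:**
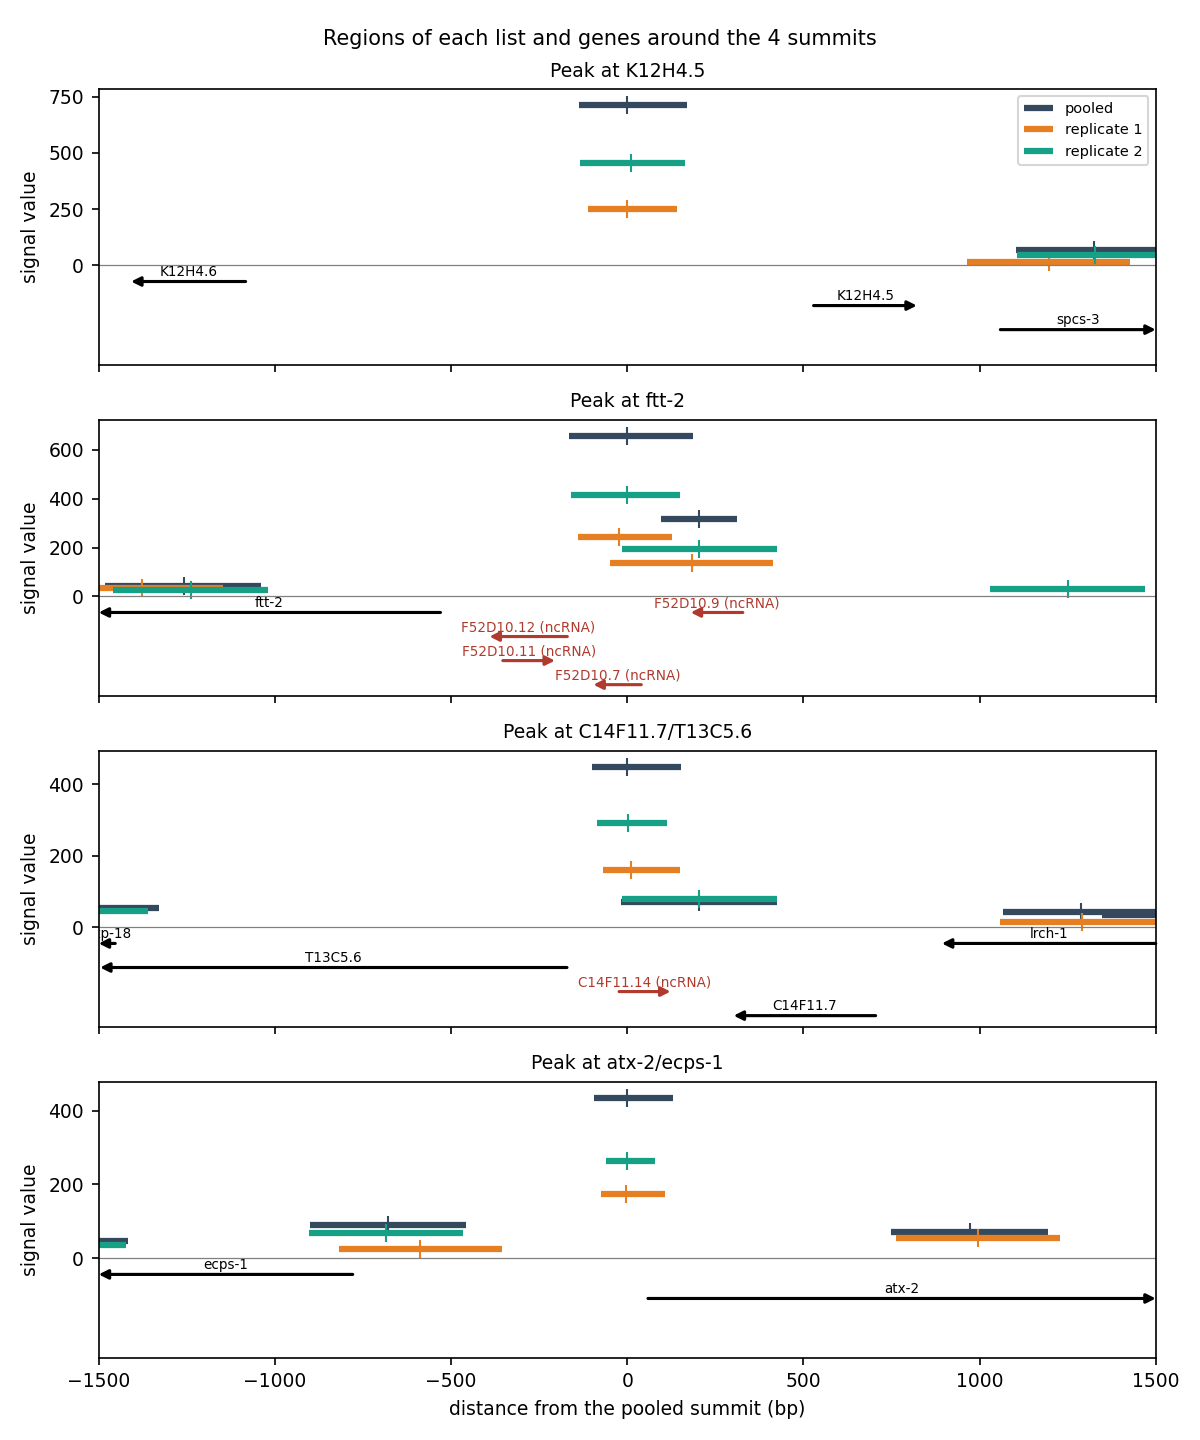
Regions and genes within 1500 bp of the 4 summits, with the distance from the pooled summit (bp) across and the signal value up. Bars span a region of the pooled, replicate 1 or replicate 2 list, ticks mark summits and arrows below 0 mark genes with their strand (red: ncRNA). At K12H4.5 and at atx-2 and ecps-1 the strong region stands in DNA with no ncRNA gene, at the ftt-2 and C14F11.7/T13C5.6 loci on one, and every other region shown is lower than the strong one of the same list.

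All 6 genes had an optimal summit near a start by construction, and 467 of all 19973 coding genes (2.34%) did. Of the 635 optimal summits, 283 (44.6%) met the same distance rules, and 4 of those are the members. In both replicate lists, a region among the 635 strongest overlapped each member peak. Of the 279 other qualifying peaks, which include the second peak at ftt-2, 163 did (58.4%), or 155 (55.6%) when the region of the nearest summit was taken. The pooled signal that chose the members comes from the same reads as these lists, so the 4 of 4 are given as a description only.

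Distinct regions within 1000 bp of any transcript start of the 6 genes numbered 5 in the optimal list, 14 in the pooled list, 10 in replicate 1 and 12 in replicate 2. Against the median signal value of its list, the K12H4.5 region was 15.1-fold higher in the pooled list, 12.2-fold in replicate 1 and 13.5-fold in replicate 2. The ftt-2 region was 13.9-, 12- and 12.3-fold higher in the same lists. The regions at C14F11.7 and T13C5.6 were 9.5-, 7.8- and 8.6-fold higher, and those at atx-2 and ecps-1 9.2-, 8.5- and 7.8-fold. These list medians were 47.1, 20.5 and 33.8 for the pooled, replicate 1 and replicate 2 lists. The −log10 q-value of the caller was at the maximum of each list for all 4 peaks (2.29, 1.49 and 1.67) and separated none of them.

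The order of the 4 peaks was not the same in every list. K12H4.5 was above ftt-2 in both replicates, by 249.2 against 244.8 in replicate 1 and by 456.9 against 413.5 in replicate 2. C14F11.7 and T13C5.6 were below atx-2 and ecps-1 in replicate 1 (159.4 and 173.1) and above them in replicate 2 (291.1 and 262.8), so these neighbours in the order cannot be ranked from 2 replicates. The ratio of the replicate 2 to the replicate 1 signal value was 1.83 at K12H4.5, 1.69 at ftt-2, 1.83 at C14F11.7 and T13C5.6 and 1.52 at atx-2 and ecps-1. Over the 279 other qualifying peaks the median of this ratio was 1.75, with quartiles of 1.46 and 2.17, and all 4 members lay between these quartiles. The strongest overlapping region was used for these ratios, and 40 of the 635 optimal peaks, the ftt-2 pair among them, shared both regions with a neighbouring peak. With the region of the nearest summit, an alternative added after the data were seen, no pair of peaks shared both regions (0 of 635), the quartiles were 1.45 and 2.20, and the members' ratios were the same. How the signal value scales with the depth of each replicate is not given in the sources used here.

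**Figure D2:**
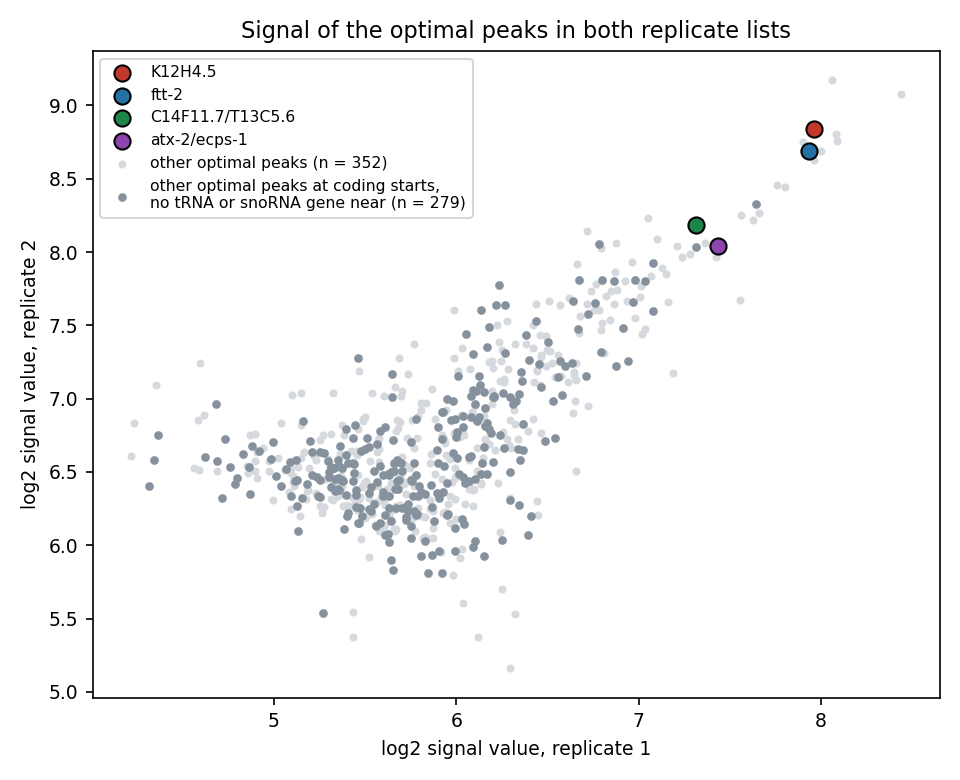
Signal value on a log2 scale in the replicate 1 list (across) and the replicate 2 list (up) for the 635 optimal peaks, each taken from the replicate region with the nearest summit. The 4 coloured points are the member peaks, dark grey points the 279 other qualifying peaks and light grey points the remaining optimal peaks. The members sit at the upper right, with K12H4.5 and ftt-2 close together and atx-2/ecps-1 and C14F11.7/T13C5.6 in opposite order on the 2 axes.

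The limit at the 20 strongest optimal summits was set here and is not part of the choice of members. With it 5 qualified, and the one that is not a member was at rpl-3, which encodes ribosomal protein L3 of the large subunit. The rpl-3 peak ranked 12 with a signal value of 526.6 in the pooled list, 199.7 in replicate 1 and 321.5 in replicate 2. Just inside the limit was the peak at atx-2 and ecps-1 (434.1, rank 18). Just outside were the peaks at ints-8 (417.2, rank 23), at ears-2 and uncp-18 (378.2, rank 31) and at K01G5.10 and tasp-1 (375.9, rank 32). The ints-8 summit was 882 bp from the coding start and inside rpr-1, the RNA gene of RNase P. The member just inside and the ints-8 peak just outside thus differed by less in signal (434.1 and 417.2) than the 2 strongest members did (712.7 and 656.3).

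By distance over the log2 signal values of the 3 lists, rpl-3 was the most alike of the 279 peaks to K12H4.5 (0.74) and to ftt-2 (0.56). The ints-8 peak was the most alike to C14F11.7 and T13C5.6 (0.18) and to atx-2 and ecps-1 (0.13). Its signal values were 159.1 in replicate 1 and 262.5 in replicate 2. The distance uses the pooled signal that chose the members, and the 279 peaks leave the other members out. Which peak was most alike therefore follows largely from the order in signal and is a description only.

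The members stood at different distances from their starts. K12H4.5 (529 bp) and ftt-2 (530 bp) were further from a start than most: 76.3% and 76.7% of the 279 other qualifying peaks were nearer to theirs. The summit at T13C5.6 (171 bp) had 33% of them nearer, and that at atx-2 (59 bp) 10%. All 4 summits were upstream of their nearest coding start, as were 237 of the 279 (84.9%). Over pooled regions outside the optimal list that met the distance rules, 47.1% of 12874 were upstream.

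**Figure D3:**
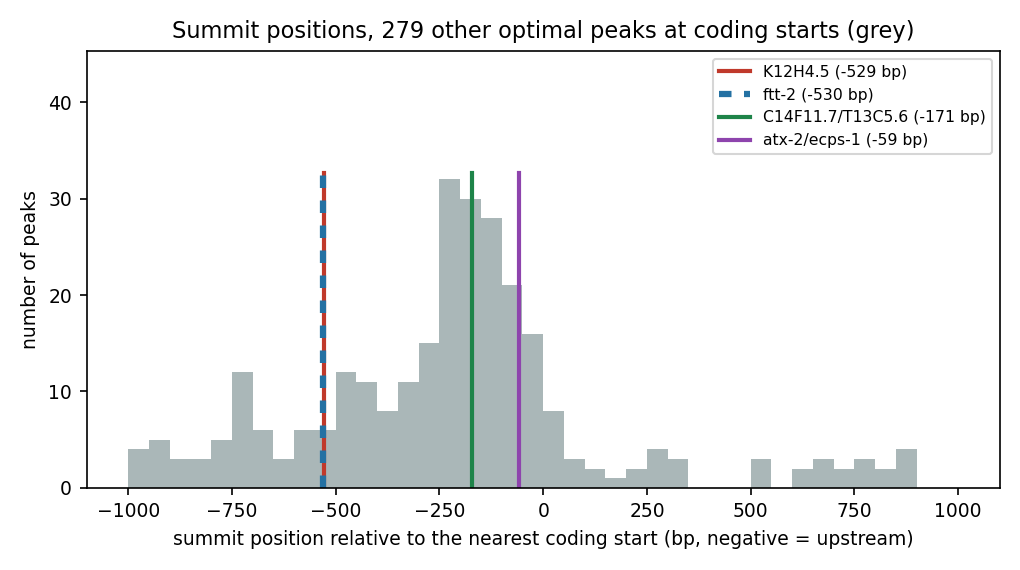
Number of other qualifying optimal peaks (grey bars, 279 in all, 50 bp bins) by the position of the summit relative to the nearest coding start in bp, negative values being upstream. Coloured lines mark the 4 member peaks. The lines of K12H4.5 and ftt-2 lie 1 bp apart, further upstream than the bulk of the bars, and those of C14F11.7/T13C5.6 and atx-2/ecps-1 lie within it.

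Coding starts on both strands lay within 1000 bp of 1 of the 4 summits, that of atx-2 and ecps-1, whose starts point away from each other. The same held for 90 of the 279 other qualifying peaks (32.3%) and for 10.7% of the 12874 pooled regions. A summit inside an ncRNA gene was found for 2 of the 4 members (the ftt-2 peak and the C14F11.7/T13C5.6 peak), against 31 of the 279 (11.1%) and 2.52% of the pooled regions. With 4 peaks chosen for their signal, such counts describe these loci and nothing is called particular to them.

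All 4 member peaks were narrow, at 310, 353, 252 and 225 bp, whereas the median of the 279 others was 444 bp and 6 of them (2.15%) were under 400 bp. The median was 444 bp in the other classes of region too. Weaker regions at atx-2 and ecps-1 were 444 bp wide in the pooled list, 464 bp in replicate 1 and 440 bp in replicate 2. Whether the caller set these widths is not given in the sources used here. Width went with rank in the optimal list. Under 400 bp were 19 of the 20 strongest optimal peaks of any kind, 27 of the next 80 (33.8%) and 2 of the remaining 535 (0.374%), so the members' widths were those of peaks of their signal.

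The 100 bases around the summits were richer in G and C than the flanks. GC content was 46% at K12H4.5, 55% at ftt-2, 50% at C14F11.7 and T13C5.6 and 62% at atx-2 and ecps-1. Their flanks had 30.2%, 40.2%, 40.0% and 35.5%. The median over the 279 others was 51.0% with flanks of 36.5%, and over the 29163 other pooled regions 41% with flanks of 36.0%. K12H4.5 was at the lower quartile of the 279 (46.0%), atx-2 and ecps-1 were above the upper one (56.0%), and the other members lay between them.

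Of 9 motifs searched on both strands within 100 bp of the summits, the GAGA repeat was in 3 of the 4 windows. It was absent from the ftt-2 window, and it was found at 33% of the 279 others and 16% of other pooled regions. The B box was in 1 member window, in 5.02% of the 279, in 47.4% of the 57 optimal peaks near a snoRNA gene and in 91.9% of the 148 near a tRNA gene. It was in 7.77% of other pooled regions, so at K12H4.5, ftt-2 and atx-2, and at most other qualifying peaks, these letters were not in the window. The GC box was 10 bp from the atx-2 summit, and 22.9% of the 279 and 5.97% of other pooled regions held it. The TATA box was in the K12H4.5 window, 95 bp left of the summit, on the side away from the gene and outside a window of 50 bp, against 11.8% of the 279 and 14.8% of other pooled regions.

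A run of 6 T (TTTTTT) was in the window of atx-2 and ecps-1, 85 to 90 bp from the summit. It was in 47% of the 279 and in 50.3% of other pooled regions. The splice acceptor letters TTTTCAG were in that window too, on the minus strand 50 to 56 bp from the summit. They were in 9.68% of the 279 and in 16.7% of other pooled regions. The A box, the GATA motif (GATAAG) and the E-box (CACGTG) were in 0 of the 4 windows, and in 1.08%, 2.51% and 3.94% of the 279. The A box letters searched were in only 10.8% of the 148 optimal peaks near a tRNA gene and in 21.1% of the 57 near a snoRNA gene. This search therefore missed most peaks at tRNA genes, and it cannot decide whether a member window holds a variant of the A box. The GAGA repeat overlapped itself in the K12H4.5 window, where its 3 matches were 2 bp apart.

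**Figure D4:**
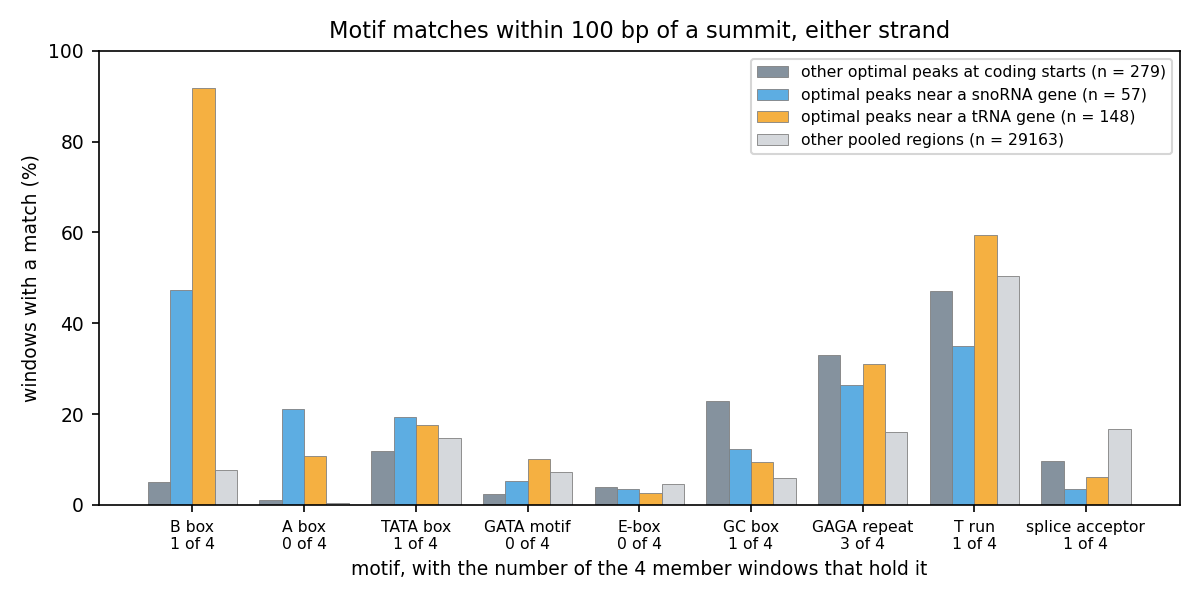
Share of windows (%) with at least 1 match to each motif within 100 bp of the summit on either strand, for the 279 other qualifying optimal peaks, the 57 near a snoRNA gene, the 148 near a tRNA gene and 29163 other pooled regions. The count under each motif is the number of the 4 member windows that hold it. The B box bar reaches 91.9% at tRNA genes and 5.02% at the other qualifying peaks, and 1 member window holds it.

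No word of 8 bases was in 3 or more of the 4 windows (0 words). Pairs of windows shared 0 to 9 such words, and no count for pairs of other peaks is given here. The pair with 9 was K12H4.5 and ftt-2. Its longest shared run was CACATTTCT, 54 to 62 bp right of the K12H4.5 summit and 44 to 52 bp right of the ftt-2 summit. That run was in 1.08% of the 279 others, in 0 of the peaks near snoRNA or tRNA genes and in 0.559% of other pooled regions. The windows of ftt-2 and atx-2 shared TTTCGCAA, which 8.6% of the 279 and 1.66% of other pooled regions held. No sequence in these windows was therefore common to the 4 peaks at this length.

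An optimal summit lay within 1000 bp of a start in 2.34% of all coding genes, and genes with related roles are given beside that share. Of the 2 genes for 14-3-3 proteins, ftt-2 had one by the choice of members and par-5 had none, the strongest pooled region at par-5 having a signal value of 64.6 (rank 5281). Of 17 genes of the DAF-16 pathway and of cortical polarity linked to 14-3-3 proteins, 1 was bound (5.88%), pkc-3, an atypical protein kinase C, with 130.9. Of 35 proteasome genes, 3 were bound (8.57%), and without ecps-1, which counts by the choice of members, 2 of 34 (5.88%). These were rpn-8 (130.0) and rpn-7 (121.9), subunits of the regulatory particle. The count of the 35 was 1 within 500 bp of a start and 5 within 2000 bp. The share of all coding genes at those distances is not given here. Without ecps-1, 26 genes of the proteasome list had a pooled region. The median of their strongest pooled signal value was 49.2, against 51.4 over the 10333 coding genes with a pooled region.

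The list of genes for poly(A) binding, decapping, deadenylation and RNA granules named 30, of which 28 were found in the annotation. Of these 28, 6 were bound (21.4%), and without atx-2, which counts by the choice of members, 5 of 27 (18.5%). Within 500 bp of a start, 3 of the 28 were bound, and the share of all coding genes at that distance is not given here. The others with the highest signal values were ntl-2, of the CCR4-NOT deadenylase complex (261.9), lsm-3, of the Lsm ring (182.8), and ifet-1, the homologue of the translational repressor 4E-T (153.5). Without atx-2 the median over the 23 genes of the list with a pooled region was 87.0, against 51.4 over all coding genes with a pooled region. The lists were drawn up with earlier results of these data known. The counts within 1000 bp therefore stand beside the 2.34% of all coding genes as a description, with no test.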

How the data were processed

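The deposited peak lists were used as they stand: 1 per replicate, 1 on pooled reads and the optimal list. Per the file headers and notes, coordinates are in ce11. The authors made the 3 larger lists from alignments and a control, without a threshold. They derived the optimal list from the pooled list and both replicate lists. The signal value and the −log10 q-value of each region are the authors'. For the aligner, the caller and the cut-off of the optimal list, the details were not given in the sources used here. All 635 nuclear optimal peaks equal a pooled region, and 1 mitochondrial peak was left out.

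Summits were joined to Ensembl release 115 genes and to the WBcel235 genome and annotation of RefSeq, with coordinates from 1. Of 19973 coding genes, 17578 have the same start and end in both annotations. At each member peak, the strongest overlapping region of a replicate list was taken. Windows of 100 bp on each side were searched for motifs on both strands. Genes of the lists counted as bound where one of their starts had an optimal summit within 1000 bp.

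The members, gene lists, motifs and comparisons were chosen with earlier results of these data known, and no test was made. Genes named are the members, genes near their summits, the 3 qualifying peaks next in signal, the most alike peaks and up to 4 bound genes a list. The search code was tested on simulated sequence. Python 3.11.15, pandas 2.3.3, numpy 2.4.6, scipy 1.17.1 and matplotlib 3.10.9 were used. Alternatives were other distances, the interval midpoint, gene starts, other overlaps and windows, and each replicate alone.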

Additional observations from a re-analysis of the deposited data

How the results depend on the processing

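Among the 20 strongest optimal summits, 5 had a coding start within 1000 bp and no tRNA or snoRNA gene within 500 bp. With a coding start required within 500 bp the number was 3, and K12H4.5 and ftt-2 were no longer among them, since their summits are 529 and 530 bp from a start. The number was 6 within 2000 bp, and it was 5 with the other distances to RNA genes, the interval midpoint or gene starts. Ranking one replicate alone gave 4 in each case (lowest and highest 4). The list without replicate 1 left out the peak at atx-2 and ecps-1 (rank 24), and the list without replicate 2 that at C14F11.7 and T13C5.6 (rank 21), so each rests on its rank in the other replicate. Member peaks with coding starts on both strands numbered 1 within 1000 bp, 0 within 500 bp and 2 within 2000 bp. All 4 overlapped a strong region of both replicates under every overlap and list size tried. For ncRNA genes, 2 interval midpoints were inside an ncRNA gene, as 2 summits were, and 2 summits had one within 200 bp. Within 50 bp of the summits, the TATA box, the T run and the splice acceptor were in 0 member windows in place of 1, and the GAGA repeat in 2 in place of 3; within 150 bp the T run was in 2. Bound genes within 500, 1000 and 2000 bp of a start numbered 1, 3 and 5 for the proteasome, 3, 6 and 6 for the RNA granule list, 0, 1 and 1 for 14-3-3 proteins, and 1, 1 and 2 for the DAF-16 and polarity list. With the 317 strongest optimal peaks alone they were 1, 4, 1 and 0 in the same order of lists. Shares of all coding genes are not given here for these settings, apart from the 2.34% within 1000 bp. The number of 8-base words in at least 3 member windows was 0 at 100 bp and 1 at 150 bp on each side. No paired analysis was possible because both replicates belong to 1 group. Depth is unknown, so no counting error could be given, and 2 replicates leave small differences in rank unresolved.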
